A study of Mus musculus with 12 samples.

Results

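The 39 genes described here are genes of T cells and natural killer (NK) cells, some of which, Gata3 and Lag3 among them, brain cells transcribe too. They were chosen by name, and all 39 were found among the 50457 genes listed for brains of mice with experimental autoimmune encephalomyelitis (EAE), a mouse model of multiple sclerosis. By role, 19 belong to the T cell receptor complex and its signalling, 7 to helper and regulatory T cells, 7 to cytotoxic and NK cells, and 6 to costimulation and checkpoints. The comparison made here is between EAE brains of mice given cannabidiol (CBD) and EAE brains of mice given its vehicle, corn oil (CO).

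Female C57BL/6J mice were immunised with MOG peptide in complete Freund's adjuvant with heat-killed mycobacteria. No pertussis toxin was given, so disease was mild, and both the CBD mice and the CO controls carried EAE. CBD at 75 mg/kg, or CO alone, was given orally for 5 days from the day after induction, and whole brains were taken on Day 18. By label there were 12 mice in 4 groups: 3 EAE/CO asymptomatic, 2 EAE/CO symptomatic, 3 EAE/CBD asymptomatic and 4 EAE/CBD symptomatic. Asymptomatic mice showed no clinical signs. The mice came from 2 cohorts, and each group held mice of both. For 1 symptomatic mouse of cohort B, labelled as given CBD, the study's own list of mice gives CO, and with it 3 mice in every group. The treatment under which the deposited means counted that mouse cannot be told from the labels.

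The value used for each gene is the larger of 2 group means, asymptomatic and symptomatic, deposited once for the EAE/CBD mice and once for the EAE/CO mice. It is called the level below. Its unit is not stated in the sources used here, and the column does not say which of the 2 groups gave the larger mean. No values per mouse were used, so no level has an SD or a test, every difference below is a description without a replicate check, and the depth per library is unknown from the tables. The larger mean rests on groups of unequal size by label, and treatment cannot be told apart from that difference. In the study's own list of mice, the symptomatic EAE/CBD mice also had higher clinical scores than the symptomatic EAE/CO mice. Treatment cannot be told apart from severity either. For a given gene, the 2 levels compared may come from different clinical groups, asymptomatic under 1 treatment and symptomatic under the other. In whole-brain RNA, fewer cells of a type and less RNA per cell cannot be told apart. Because the unit is not stated, levels are compared between treatments and not between genes. Sums over a list are likewise compared between treatments only, and are weighted to the genes with high listed values.

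T cells recognise peptides through a receptor whose signal passes through the CD3 chains and the zeta chain to the kinases Lck and Zap70 and the adaptor Lat. Helper T cells, directed by factors such as Tbx21, Gata3 and Foxp3, act through cytokines. Cytotoxic T cells and NK cells kill with perforin and granzymes. In EAE, helper T cells specific for myelin enter the brain and spinal cord, and those that make interferon-gamma or IL-17A are known to drive the disease. The healthy brain holds few T cells, so their transcripts are a small part of whole-brain RNA.

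The 250 bases before the listed start of 5 members are printed here on GRCm39 because the results below return to them. Cd3g and Cd3d are read outward from neighbouring starts and had unequal ratios, and Gzmb, Nkg7 and Prf1 are genes of the killing granule. Each runs 5′ to 3′ on its gene's strand and ends at the base before the start. Capitals mark a match on either strand to any of 4 short motifs. The motif known to be bound by RUNX transcription factors was spelled ACCACA. The motif of ETS factors was searched as AGGAAG. The TATA box that places the start of transcription was taken as TATAAA. For the GATA factors, to which Gata3 belongs, the letters searched were AGATAA. The windows lie at chr9:44891730-44891979 on the minus strand for Cd3g, chr9:44892817-44893066 on the plus strand for Cd3d, chr14:56499792-56500041 on the minus strand for Gzmb, chr7:43086312-43086561 on the plus strand for Nkg7 and chr10:61133280-61133529 on the plus strand for Prf1.
Cd3g: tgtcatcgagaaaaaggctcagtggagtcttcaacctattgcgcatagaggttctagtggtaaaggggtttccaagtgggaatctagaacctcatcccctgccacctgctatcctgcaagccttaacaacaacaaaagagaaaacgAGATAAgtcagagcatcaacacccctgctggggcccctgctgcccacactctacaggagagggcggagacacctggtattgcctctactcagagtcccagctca
Cd3d: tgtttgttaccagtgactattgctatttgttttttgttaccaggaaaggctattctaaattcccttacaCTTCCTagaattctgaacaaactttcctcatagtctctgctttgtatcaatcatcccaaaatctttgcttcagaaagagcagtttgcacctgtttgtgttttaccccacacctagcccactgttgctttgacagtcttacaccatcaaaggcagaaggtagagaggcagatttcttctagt
Gzmb: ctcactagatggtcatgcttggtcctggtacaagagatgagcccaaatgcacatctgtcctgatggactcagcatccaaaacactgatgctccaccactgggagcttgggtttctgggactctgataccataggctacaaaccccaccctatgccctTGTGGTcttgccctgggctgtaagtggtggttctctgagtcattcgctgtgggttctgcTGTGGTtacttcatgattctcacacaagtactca
Nkg7: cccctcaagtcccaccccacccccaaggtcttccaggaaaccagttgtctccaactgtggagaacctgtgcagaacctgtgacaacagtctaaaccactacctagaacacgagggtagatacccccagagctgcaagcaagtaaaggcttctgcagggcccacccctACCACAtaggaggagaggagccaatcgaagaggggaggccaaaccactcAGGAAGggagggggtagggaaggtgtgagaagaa
Prf1: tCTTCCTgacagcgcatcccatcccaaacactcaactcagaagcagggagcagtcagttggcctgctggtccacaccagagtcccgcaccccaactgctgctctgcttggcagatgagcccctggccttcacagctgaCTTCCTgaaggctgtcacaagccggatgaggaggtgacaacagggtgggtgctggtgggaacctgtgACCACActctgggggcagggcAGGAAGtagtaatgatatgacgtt

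The Gzmb window holds ACCACA at 34 and at 93 bases before the start, both on the opposite strand. Nkg7 has it 83 bases and Prf1 45 bases before the start, on the gene's own strand. Of the 7 cytotoxic and NK members, 6 had ACCACA in the window (Gzma, Gzmb, Prf1, Nkg7, Klrd1 and Klrk1), and Gzmk had none. Over all 39 members the count was 12, or 30.8%, beside 12.7% of the 16250 genes compared. Among the other classes it was 4 of 19 receptor and signalling genes (Lck, Lat, Txk and Sh2d1a), Il17a among the 7 helper genes and Cd28 among the 6 costimulation genes. AGGAAG was in 18 of 39 windows (46.2%), beside 28.8% of all genes, and 10 of those 18 are receptor and signalling genes. TATAAA was in 5 members (12.8%, beside 9.32%), and 4 of them are the helper and regulatory genes Foxp3, Gata3, Ifng and Il17a. It lay on the gene's own strand 32 bases before the listed start of Foxp3, 30 before Ifng and 31 before Il17a. For Gata3 and Ubash3a it lay on the opposite strand, 116 and 196 bases before the start. AGATAA was in 3 members (7.69%, beside 7.91%), Cd3g, Klrd1 and Cd28. The windows follow the listed gene starts, which for 11 members lie more than 250 bases from the GENCODE M39 gene start (Cd247, Cd4, Ptprcap, Foxp3, Gata3, Gzmk, Klrd1, Cd28, Icos, Ctla4 and Tigit), so their windows may not precede the annotated start. The other 28 include the 5 printed. In a count over these 28, chosen after seeing the data, ACCACA was in 10, AGGAAG in 15, TATAAA in 3 and AGATAA in 1. The shares of all genes given above were not limited by distance to the GENCODE start, so these counts have no like background. No motif contains another, and a match is a description of these letters and not a binding site.

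All 39 genes had a level above 0 in both treatments. The levels ran from 0.05 to 14.35 in the EAE/CBD mice, with a median of 0.66, and from 0.07 to 13.52 in the EAE/CO mice, with a median of 0.71. A level of 1 or more was listed for 14 members in the EAE/CBD mice and for 15 in the EAE/CO mice, and 22 were under 1 in both. At such levels the 2 decimals given leave a visible rounding error.

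**Figure D1:**
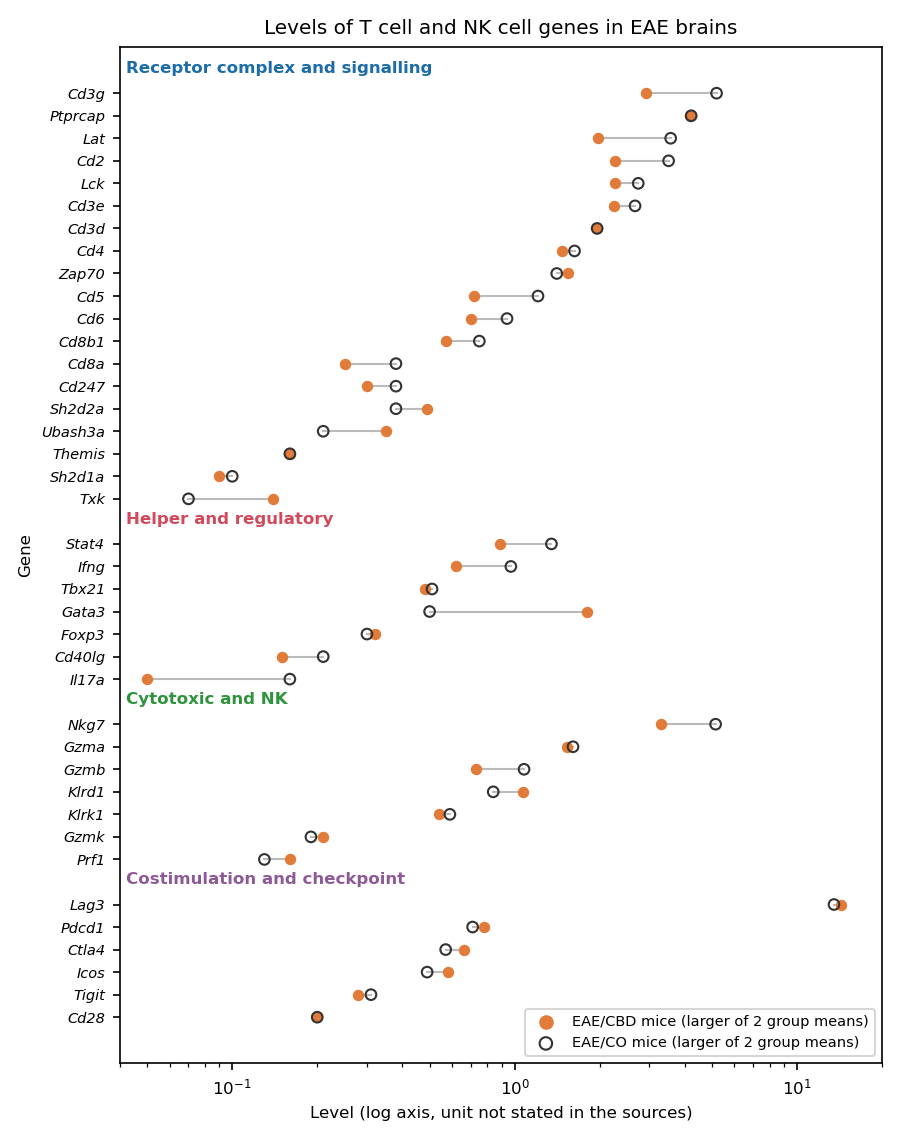
Level of each of the 39 genes on a log axis (unit not stated), with filled points for the EAE/CBD mice and open points for the EAE/CO mice; each point is the larger of 2 group means, so it has no error bar. Genes are grouped by role. The widest gaps are at Gata3 (1.80 and 0.50) and Il17a (0.05 and 0.16), and the levels of Cd3d, Themis and Cd28 are equal.

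Of the 39 genes, 23 had the higher level in the EAE/CO mice, 13 in the EAE/CBD mice and 3 were equal. Differences between treatments are given below as the log2 ratio of the EAE/CO to the EAE/CBD level, with 0.1 added to both, so that a positive value is higher in the EAE/CO mice; the added 0.1 understates the ratio of low genes. The 39 had a median log2 ratio of 0.07, with quartiles of -0.11 and 0.42. Rounding of the levels can place that median anywhere between 0.06 and 0.13. Over the 16250 genes that reached a level of 0.1 under either treatment, the median was -0.04, with quartiles of -0.21 and 0.12, and 42.3% were higher in the EAE/CO mice, beside 59.0% of the members. The upper quartile of the members lay above that of all genes, while the lower quartiles were closer together.

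Differences of 2-fold or more were rare. With 0.1 added, none of the 39 was at least 2-fold higher in the EAE/CO mice, beside 0.788% of all genes; with 0.01 added, Il17a was. Gata3 alone was at least 2-fold higher in the EAE/CBD mice, beside 1.78% of all genes. At a fold of 1.5, 6 members were higher in the EAE/CO mice (Lat, Cd3g, Il17a, Cd5, Nkg7 and Cd2), beside 3.32% of all genes, and Gata3 was again the one that was higher in the EAE/CBD mice, beside 5.7%. The share past a fold depends on level. At a fold of 1.5 it was counted over genes of all levels only, so the 1.5-fold counts have no background of like level. Among genes whose larger level was under 1, 3.16% were 2-fold higher in the EAE/CO mice and 5.9% in the EAE/CBD mice, and 0 of the 22 members in that range passed either way. Among genes whose larger level was from 1 to under 20, the shares were 0.209% and 0.879%, and of the 17 members in that range Gata3 passed, on the EAE/CBD side.

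**Figure D2:**
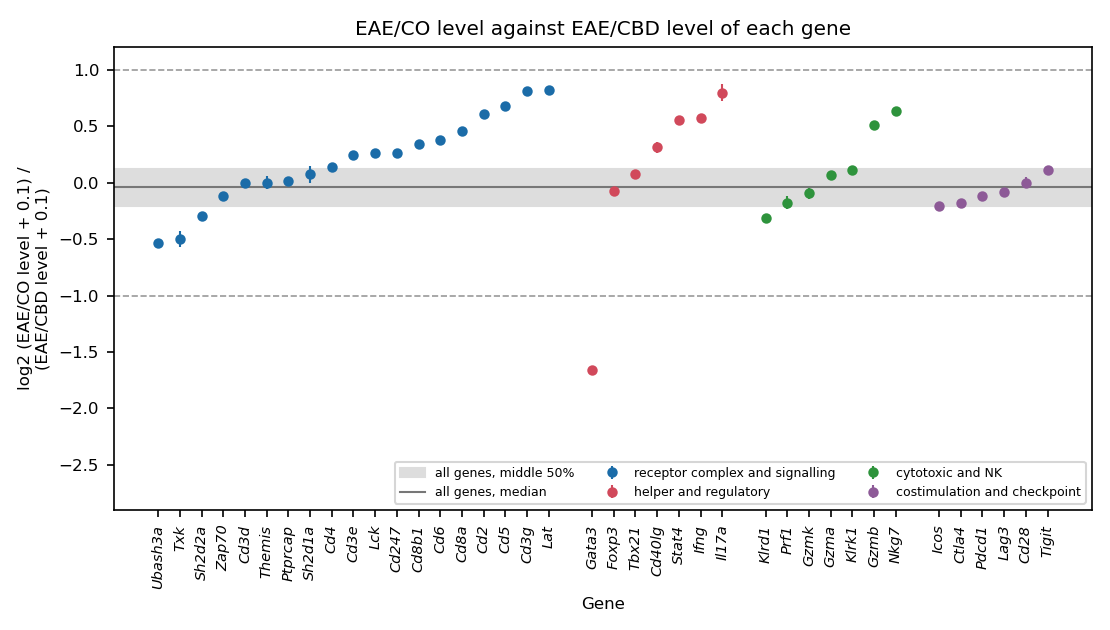
Log2 ratio of the EAE/CO to the EAE/CBD level (0.1 added to both) for each gene, coloured by role. Bars show how far rounding of the levels could move a ratio and are not replicate error; the grey band and line give the middle 50% (-0.21 to 0.12) and the median (-0.04) of all genes, and dashed lines mark 2-fold. Gata3 at -1.66 is the only member past a dashed line, and Lat at 0.82 and Cd3g at 0.81 are the highest.

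The receptor complex and signalling genes were mostly higher in the EAE/CO mice. Of the 19, 13 (68.4%) were higher there, beside 42.3% of all genes, 4 were higher in the EAE/CBD mice and 2 were equal. Their median log2 ratio was 0.24. Their levels summed to 24.6 in the EAE/CBD mice and 31.48 in the EAE/CO mice. The chains of the receptor complex had unequal ratios. Cd3g was listed at 2.92 in the EAE/CBD mice and 5.19 in the EAE/CO mice, a ratio of 1.78 without the added 0.1. Cd3e was at 2.24 and 2.67, Cd247, which encodes the zeta chain, at 0.30 and 0.38, and Cd3d at 1.96 in both. The CD3 proteins and the zeta chain assemble into 1 complex at the cell surface, and the log2 ratios of their transcripts were 0.81, 0.24, 0.26 and 0.00.

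The coreceptors were all listed higher in the EAE/CO mice. Cd4, the coreceptor of helper T cells, was at 1.47 in the EAE/CBD mice and 1.63 in the EAE/CO mice, a log2 ratio of 0.14. The chains of the cytotoxic coreceptor were at 0.25 and 0.38 for Cd8a and at 0.57 and 0.75 for Cd8b1. Their log2 ratios were 0.46 and 0.34, and all 3 coreceptor genes lay above the upper quartile of all genes, Cd4 only just.

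Among the first signalling proteins, Lck, the kinase that acts on the CD3 chains, was at 2.27 in the EAE/CBD mice and 2.74 in the EAE/CO mice. Zap70, the kinase that binds the phosphorylated chains, was on the other side, at 1.54 and 1.41. The adaptor Lat was at 1.98 and 3.57, a ratio of 1.80 and the highest log2 ratio of the 39 genes, at 0.82. Thus Lat and the kinase that phosphorylates it, Zap70, had ratios on opposite sides of equality. The log2 ratio of Zap70, -0.12, lay between the quartiles of all genes.

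Cd2, an adhesion and costimulatory receptor, was at 2.27 in the EAE/CBD mice and 3.51 in the EAE/CO mice. Cd5, an inhibitor of receptor signalling, was at 0.72 and 1.21, and its relative Cd6 at 0.70 and 0.94. The log2 ratios of the 3 were 0.61, 0.68 and 0.38. Ptprcap, which associates with the phosphatase CD45, was at 4.18 and 4.22 and thus nearly equal.

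Txk, a kinase of the Tec family, was at 0.14 in the EAE/CBD mice and 0.07 in the EAE/CO mice, and its log2 ratio was -0.50. Ubash3a, a suppressor of receptor signalling, was at 0.35 and 0.21, with a log2 ratio of -0.54. Sh2d2a, an adaptor that binds Lck, was at 0.49 and 0.38. These 3 were the members of the class with the lowest ratios. Sh2d1a, the adaptor of the SLAM receptors, was at 0.09 and 0.10, a gap that rounding could remove, and Themis, needed for T cell development in the thymus, was at 0.16 in both.

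In the helper and regulatory class, 5 of 7 genes were higher in the EAE/CO mice, beside 42.3% of all genes, and the median log2 ratio was 0.31. The summed level was nevertheless lower in the EAE/CO mice (4.31 in the EAE/CBD mice and 4.0 in the EAE/CO mice) because of Gata3. Ifng, which encodes interferon-gamma, was at 0.62 in the EAE/CBD mice and 0.97 in the EAE/CO mice. Il17a, the cytokine of Th17 cells, was at 0.05 and 0.16. The ratio of Il17a was 3.2 without the added 0.1, rounding allows 2.82 to 3.67, and its log2 ratio was 0.79. Csf2 (GM-CSF), another T cell cytokine known to drive EAE, is no member and was looked at after its values had been seen; it was on the other side, at 0.21 in the EAE/CBD mice and 0.08 in the EAE/CO mice, a log2 ratio of -0.78. Ifng and Il17a were both higher in the EAE/CO mice, at levels under 1. Because Csf2 was picked with its value known, it cannot show whether such cytokines share a direction. Cd40lg, the ligand by which helper T cells activate B cells and macrophages, was at 0.15 and 0.21.

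The regulators of the helper lineages fell into 3 patterns. Stat4, which carries the IL-12 signal for Th1 cells, was at 0.89 in the EAE/CBD mice and 1.35 in the EAE/CO mice, a log2 ratio of 0.55. Tbx21 (T-bet), the regulator of Th1 cells, was at 0.48 and 0.51, and Foxp3, the regulator of regulatory T cells, at 0.32 and 0.30. The log2 ratios of Tbx21 and Foxp3, 0.07 and -0.07, both lay between the quartiles of all genes. Gata3, the regulator of Th2 cells, was at 1.80 and 0.50, or 3.6-fold higher in the EAE/CBD mice.

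Gata3 is also transcribed in neurons, among them the serotonin neurons of the brainstem, so genes of both kinds were looked at beside it; this set was chosen after the value of Gata3 had been seen. The serotonin genes were all higher in the EAE/CBD mice. Tph2, the enzyme that starts serotonin synthesis in neurons, was at 9.84 in the EAE/CBD mice and 1.25 in the EAE/CO mice. The serotonin transporter Slc6a4 was at 4.35 and 0.64, Fev, a transcription factor of serotonin neurons, at 0.93 and 0.24, and Ddc, which completes serotonin and dopamine synthesis, at 12.12 and 5.23. The related factor Gata2, also made in neurons, was at 1.55 and 1.00. The genes of Th2 cells were at or near 0: Il4 and Il13 were listed at 0 in both treatments, Il5 was at 0.09 and 0.07, and the chemokine receptor Ccr4 at 0.11 and 0.05. The part of serotonin neurons in the Gata3 value was not tested. Without Gata3 and with 0.1 added, 0 of 38 members were 2-fold apart in either direction (with nothing added, Il17a and Txk were), and the median log2 ratio was 0.09.

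**Figure D3:**
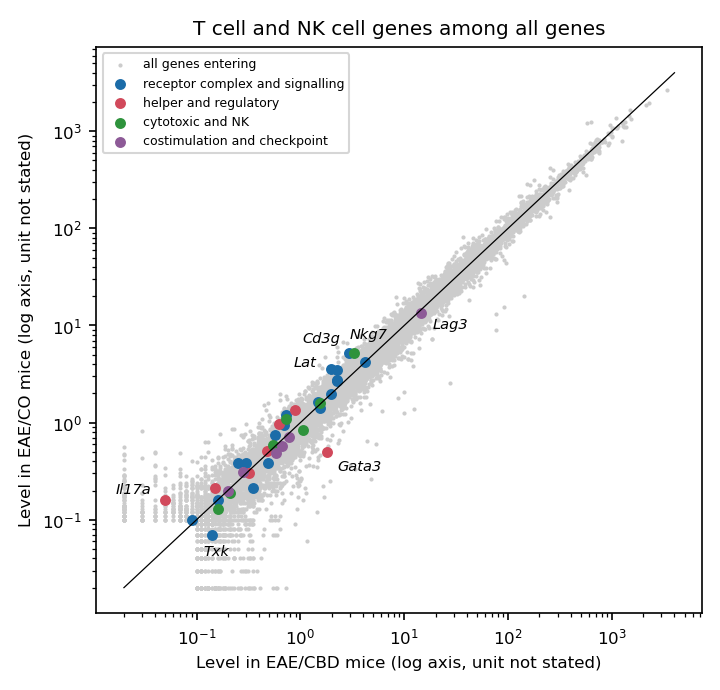
Level in the EAE/CO mice against level in the EAE/CBD mice, both on log axes (unit not stated), for the 39 genes in colour and all 16250 genes that entered in grey; levels under 0.02, 0 included, are drawn at 0.02, and the line marks equal levels. Most members lie in the lower left, where the grey cloud is widest, and Gata3 lies below the cloud's centre at 1.80 and 0.50.

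The cytotoxic and NK genes were split, with 4 of 7 higher in the EAE/CO mice, beside 42.3% of all genes. Their median log2 ratio was 0.07, with summed levels of 7.53 in the EAE/CBD mice and 9.59 in the EAE/CO mice. Nkg7, a protein of the killing granule, was at 3.29 and 5.15. Gzmb (granzyme B) was at 0.73 and 1.08, while Gzma (granzyme A) was at 1.53 and 1.61. Granzymes and perforin, which lets them into the target cell, had unequal ratios. Prf1 (perforin) was at 0.16 in the EAE/CBD mice and 0.13 in the EAE/CO mice, and Gzmk (granzyme K) at 0.21 and 0.19. The log2 ratios were 0.63 for Nkg7 and 0.51 for Gzmb beside -0.18 for Prf1. The windows before all 3 starts, printed above, hold ACCACA, and a link between motif and ratio was not tested. Of the NK receptors, Klrd1 (CD94) was at 1.07 and 0.84 and Klrk1 (NKG2D) at 0.54 and 0.59, so that Klrd1 was the class's lowest in log2 ratio, at -0.32.

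The costimulation and checkpoint genes had the narrowest range of ratios of the 4 classes. Of 6, 4 were higher in the EAE/CBD mice, Tigit was higher in the EAE/CO mice and Cd28 was equal, with a median log2 ratio of -0.10 and a range from -0.20 to 0.11. Most genes leaned the same way, with 9212 of the 16250 compared higher in the EAE/CBD mice. Cd28, the main costimulatory receptor, was at 0.20 in both. Icos, its inducible relative, was at 0.58 in the EAE/CBD mice and 0.49 in the EAE/CO mice, and Ctla4, the inhibitory competitor of Cd28, at 0.66 and 0.57. The inhibitory receptors Pdcd1 (PD-1) and Tigit were at 0.78 and 0.71, and at 0.28 and 0.31. All 6 log2 ratios lay between the quartiles of all genes.

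Lag3, an inhibitory receptor that binds MHC class II, was at 14.35 in the EAE/CBD mice and 13.52 in the EAE/CO mice, a log2 ratio of -0.09. It is transcribed in microglia and neurons as well as T cells. Sums over the 39 genes depend on Lag3: they were 53.29 and 60.87 with it and 38.94 and 47.35 without it. The part of microglia and neurons in the Lag3 level was not tested.

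The 39 genes lie on 16 chromosomes, and 15 of them form 9 pairs within 100 kb of each other. Cd3g and Cd3d lie back to back on chromosome 9, with starts 1337 bases apart and transcribed away from each other. Cd3g had a log2 ratio of 0.81 and Cd3d one of 0.00. In the windows printed above, which share no base, Cd3g holds AGATAA 104 bases before its start and Cd3d holds AGGAAG on the opposite strand 181 bases before its start. Any part of these motifs in the ratios was not tested. Cd3e lies 11682 bases from Cd3d, with a log2 ratio of 0.24. Other neighbours were closer in ratio. Ctla4 and Icos, on chromosome 1, had log2 ratios of -0.18 and -0.20. Cd8b1 and Cd8a, on chromosome 6, had 0.34 and 0.46, and Cd5 and Cd6, on chromosome 19, had 0.68 and 0.38. Gzma and Gzmk on chromosome 13 had 0.07 and -0.10, Cd4 and Lag3 on chromosome 6 had 0.14 and -0.09, and Klrd1 and Klrk1, in the NK gene cluster of the same chromosome, had -0.32 and 0.11. Cd247, Sh2d1a, Foxp3 and Gzmk overlap another protein-coding gene on the opposite strand, and their levels are uncertain where reads were not assigned by strand. Ptprcap overlaps Coro1b on its own strand and Rps6kb2 on the other, so its level is uncertain even where strand was used.

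Of 28 further genes of T cell receptor signalling and T cell identity, 27 were listed under these names and 24 reached a level of 0.1. Of the 24, 9 were higher in the EAE/CO mice and 15 in the EAE/CBD mice, none was 2-fold apart, and the median log2 ratio was -0.08. The share higher in the EAE/CO mice was 37.5%, beside 42.3% of all genes. The constant segments of the receptor chains themselves, Trac, Trbc1 and Trbc2, were listed at 0 in both treatments. The sources used here do not say whether reads of such gene segments were counted. These zeros therefore do not show that the receptor chains were not transcribed. Il2rg, the shared chain of several cytokine receptors, was at 16.48 in the EAE/CBD mice and 18.09 in the EAE/CO mice.

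Of 28 further genes of helper, killer and NK cell function, 24 reached a level of 0.1, of which 7 were higher in the EAE/CO mice, 16 in the EAE/CBD mice and 1 was equal, with a median log2 ratio of -0.14 and a share higher in the EAE/CO mice of 29.2%, beside the same 42.3%. The chemokine Ccl5 was at 119.69 in the EAE/CBD mice and 144.96 in the EAE/CO mice, and the interferon-gamma receptor chain Ifngr1 at 16.51 and 15.50. Genes of NK cells stood at both ends. Klrb1c (NK1.1) was at 0.33 in the EAE/CBD mice and 0.07 in the EAE/CO mice, and Ncr1 (NKp46) at 0.20 and 0.06. Klre1, another NK receptor, was at 0.11 and 0.24, and Klra8, of the Ly49 family, at 0.07 and 0.28, which is uncertain because Ly49 genes are near-identical copies. These NK genes, at levels under 1, were named because their ratios were among the largest in each direction. They therefore cannot show whether NK genes share a direction. Klrc1, an NK receptor of the same list, was at 0.47 in both treatments. Cxcr3, a chemokine receptor of Th1 and cytotoxic cells, was at 1.06 and 0.48, and Tox, a transcription factor that is also made in neurons, at 2.21 and 3.33. At least 2-fold apart were Klra8 on the EAE/CO side, beside 0.788% of all genes, and Klrb1c and Cxcr3 on the EAE/CBD side, beside 1.78%. Among genes under 1, as Klra8 and Klrb1c were, the shares were 3.16% and 5.9%. Cxcr3 lay on the cut-off, with a log2 ratio of -1.0, and rounding could remove it.

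Markers of other cells were read in the same way. Snap25 of neurons was at 687.84 in the EAE/CBD mice and 767.30 in the EAE/CO mice. The marker lists of other immune cells leaned in different directions. Neutrophil markers were higher in the EAE/CO mice for 5 of 6 genes, with summed levels of 69.45 in the EAE/CBD mice and 84.4 in the EAE/CO mice, led by S100a9 at 33.22 and 42.98. Markers of monocytes and macrophages were higher in the EAE/CBD mice for 8 of 10, with sums of 665.77 and 426.0. Lyz2, at 568.06 and 350.91, made up most of both sums. Ly6c2, at 23.38 and 29.83, and Plac8, at 3.42 and 4.57, went the other way, so the list had no single direction. Of 9 B cell genes, 5 were higher in the EAE/CO mice, with sums of 4.34 and 5.19, and Cd79a was at 1.03 and 1.59. Glial and vascular markers were mostly higher in the EAE/CBD mice. That held for 7 of 8 microglia genes, 6 of 6 oligodendrocyte genes, 5 of 6 astrocyte genes (Gfap was at 216.74 and 155.61) and 6 of 6 endothelial genes (Cldn5 was at 38.55 and 37.45). Neuronal genes were even, 4 against 4, with sums of 1588.57 and 1733.87. These counts stand beside all 16250 genes compared, of which 9212 were higher in the EAE/CBD mice and 42.3% in the EAE/CO mice. The part of these other cells in the T and NK cell levels was not tested.

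**Figure D4:**
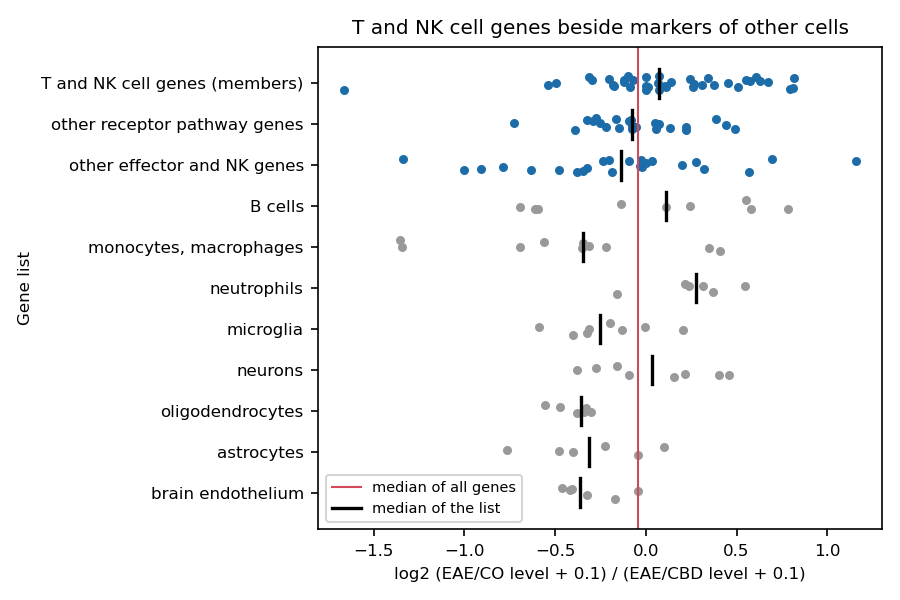
Log2 ratio of the EAE/CO to the EAE/CBD level (0.1 added to both) for single genes, grouped by list; black bars mark each list's median and the red line the median of all genes (-0.04). The 39 genes have a median of 0.07 and reach furthest down, through Gata3; the 2 further lists of T and NK cell genes have medians of -0.08 and -0.14, and the lists of monocytes, oligodendrocytes, astrocytes and endothelium lie at -0.35, -0.36, -0.31 and -0.36.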

How the data were processed

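Whole-brain RNA of 12 female mice was sequenced. The authors trimmed the reads and mapped them to GRCm39 with CLC Genomics Workbench (version: not given in the sources used here). GRCm38 is listed beside GRCm39 by the submitters' processing notes. The signal used here, called the level, is the larger of 2 group means that the authors computed and deposited, with 2 decimals from 0.01 upward and more below; its unit is not stated. The deposited tables also hold fold changes, p-values, FDRs and Bonferroni values of the authors' own comparisons, which were not used.

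Groups were taken from the sample labels. Genes that reached a level of 0.1 under either treatment entered (16250 of 50457), 0.1 was added before the log2 ratio, and 2-fold and 1.5-fold were the folds counted. The EAE/CO comparison was listed in both directions with identical levels. Summed levels over all genes were 366929 (EAE/CBD) and 358949 (EAE/CO), and 32307 genes were at 0 in both. Median levels did not rise with transcript length (EAE/CO: 7.22, 5.615, 5.34 and 3.955 over 4 classes of coding genes, from the shortest to the longest). Windows of 250 bases before listed starts were read from GRCm39, and overlaps from GENCODE M39. The scripts (Python 3.11.15, pandas 2.3.3) were tested on simulated data. Members and lists were chosen with earlier results of these data known. Named were all 39 members, from the 2 further T and NK cell lists together the 3 genes with the largest EAE/CO level and the 3 with the largest ratio in each direction, and from each cell type list the gene with the largest EAE/CO level, of which 2 are not reported here. Genes named outside this rule include Csf2, Klrc1, Trac, Trbc1, Trbc2, Ly6c2, Plac8 and the genes set beside Gata3. Alternatives were another minimum level, pseudocount, centring, fold and listing.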

Additional observations from a re-analysis of the deposited data

How the results depend on the processing

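The median log2 ratio of the members stayed positive under every alternative run. It was 0.14 over the 25 members that reached 0.5 under either treatment and 0.24 over the 17 that reached 1, where low genes drop out by construction, 0.033 with 1 added to both levels in place of 0.1, 0.13 with 0.01 added, and 0.12 after the median of all genes was subtracted. Without Gata3 and Lag3, an alternative chosen after seeing the data, it was 0.11. The count of members at least 2-fold higher in the EAE/CO mice was 0, but 1 (Il17a) with 0.01 added and 6 at a fold of 1.5. The count 2-fold higher in the EAE/CBD mice was 1 (Gata3), but 0 with 1 added. At least 0.1 was listed for 37 members in the EAE/CBD mice and 38 in the EAE/CO mice, at least 0.5 for 24 and 24, and at least 1 for 14 and 15. Lower minimum levels and the reverse listing of the EAE/CO comparison changed none of these values except the number of members at 0.05 or more, which was 39 in both. No mouse was left out in turn, since no values per mouse were used. No paired analysis was possible because each treatment has 1 pooled value per gene.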
